A study of Mus musculus with 45 samples.

Results

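The difference between striatum and prefrontal cortex in the response to homozygous Shank3 mutation was examined, as the HM minus WT change in the striatum minus the HM minus WT change in the cortex. It uses 20 of the 45 RNA-seq samples of the study, 5 for each of cortex WT, cortex HM, striatum WT and striatum HM, and 16632 of the 18135 genes listed, those with a mean normalized count of at least 10 over these samples. WT mice were wild-type, and HM mice were homozygous for a Shank3 allele that lacks exons 14 to 16 (the labels write knock-out, the table KI). All were male C57BL/6J mice of 13 weeks. The allele is carried by all cells, so that a change in one region can arise there or through another region or cell type, and the 2 cannot be told apart. A sample is a piece of tissue, so that fewer cells of a type and less RNA per cell cannot be told apart either. The study also has heterozygous mice (HT) and the hippocampus, which are used below only beside the genes named.

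Shank3 is a scaffold protein of the postsynaptic density of excitatory synapses, where it links glutamate receptor complexes to Homer and to the actin cytoskeleton. The striatum is known for its high Shank3 level and for GABAergic spiny projection neurons that receive glutamatergic input from the cortex, whereas the cortex consists largely of glutamatergic projection neurons. Mice with mutations of Shank3 are known for repetitive grooming and altered corticostriatal synapses, which raises the question of whether the 2 regions respond to the same mutation alike.

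The 3 exons that the HM mice lack are shown because every comparison rests on their loss. They lie on chromosome 15 (GRCm38, plus strand) in the GENCODE M21 transcript of Shank3 with 22 exons, are coding throughout and belong to the stretch that encodes the PDZ domain. They are 83, 125 and 133 bases long, 341 in all, which leaves a remainder of 2 when divided by 3. The study does not say which transcript its exon numbers refer to. In this transcript, exon 14 is chr15:89531626-89531708, exon 15 is chr15:89532095-89532219 and exon 16 is chr15:89532329-89532461.
Exon 14: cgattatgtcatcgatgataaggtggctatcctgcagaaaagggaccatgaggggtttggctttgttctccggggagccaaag
Exon 15: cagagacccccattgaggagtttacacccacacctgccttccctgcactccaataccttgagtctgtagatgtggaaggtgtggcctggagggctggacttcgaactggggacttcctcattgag
Exon 16: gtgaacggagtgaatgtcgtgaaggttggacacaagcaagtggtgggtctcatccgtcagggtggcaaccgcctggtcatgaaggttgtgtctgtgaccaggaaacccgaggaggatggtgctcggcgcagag

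The labels were checked first with Shank3 itself (chr15:89499623-89560261). In the cortex, normalized counts of Shank3 were 6985, 7519, 8365, 8717 and 8437 in the WT mice and 4066, 4446, 4171, 3689 and 3897 in the HM mice. In the striatum, they were 12189, 12644, 12706, 12739.8 and 11309 in the WT mice and 6061, 5883, 6242, 5922 and 4569 in the HM mice. Every HM sample lay below every WT sample of its region, and the lowest striatal HM value was that of replicate 5. Shank3 fell by 1.11 ± 0.08 (SE) on the log2 scale in the striatum (adjusted p = 4.36e-08) and its cortical log2 change was −0.98 ± 0.08 (adjusted p = 4.59e-07), which left 46.6% of the WT mean in the striatum and 50.6% in the cortex. The values are counted per gene and do not show which exons the remaining reads cover. The striatal minus cortical change was −0.13 ± 0.11 (95% interval −0.36 to 0.10, adjusted p = 0.999), so that no difference in the share lost was detected. It was −0.05 without striatum HM replicate 5 and −0.08 without cortex WT replicate 1. An exact permutation test with genotype permuted within regions gave p = 0.762 (two-sided, 63504 assignments), but its assignments move the Shank3 loss itself and make it coarse. Because the striatum started 1.54-fold above the cortex in WT mice, the loss in normalized counts was 6582 ± 403 (SE) in the striatum and 3951 ± 348 in the cortex. The difference of 2631 ± 533 between them is a description on the linear scale that was chosen after the values were seen.

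Some of the 20 samples stood apart in neuronal markers, most of all cortex HM replicate 2. The 43 markers of striatal spiny projection neurons in the table, scored as the mean log2 value over the list minus that over all genes tested, reached 2.41 in cortex HM replicate 2, and ranged from −0.09 to 0.32 in the other cortex HM samples, from −0.002 to 0.18 in cortex WT and from 3.95 to 4.34 in the striatum. Its Drd1, the D1 dopamine receptor, had 2483 normalized counts where the highest of the other 4 cortex HM samples had 225. The summed level of the list placed this sample 18.4% of the way from the cortex WT to the striatum WT mean. In the striatum, the score of cortical projection and claustral neurons was highest in WT replicate 5, at 1.17 against 0.35 to 0.57 in the other WT samples, and was 0.04 to 1.06 in HM, with replicate 1 the highest. By the summed level of this list, HM replicate 1 lay furthest toward the cortex, 10.7% of the way, followed by WT replicate 5 at 8.59% and HM replicate 5 at 5.10%. Slc17a7, the vesicular glutamate transporter of cortical neurons, had 7801 normalized counts in striatum WT replicate 5. The other striatum WT samples had at most 2137, while striatum HM samples reached 6032. Values without cortex HM replicate 2 or striatum WT replicate 5 are given beside part of the results. A result given without them can also depend on these samples. Without striatum HM replicate 1 or 5, 0 genes passed the test of the difference.

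**Figure D1:**
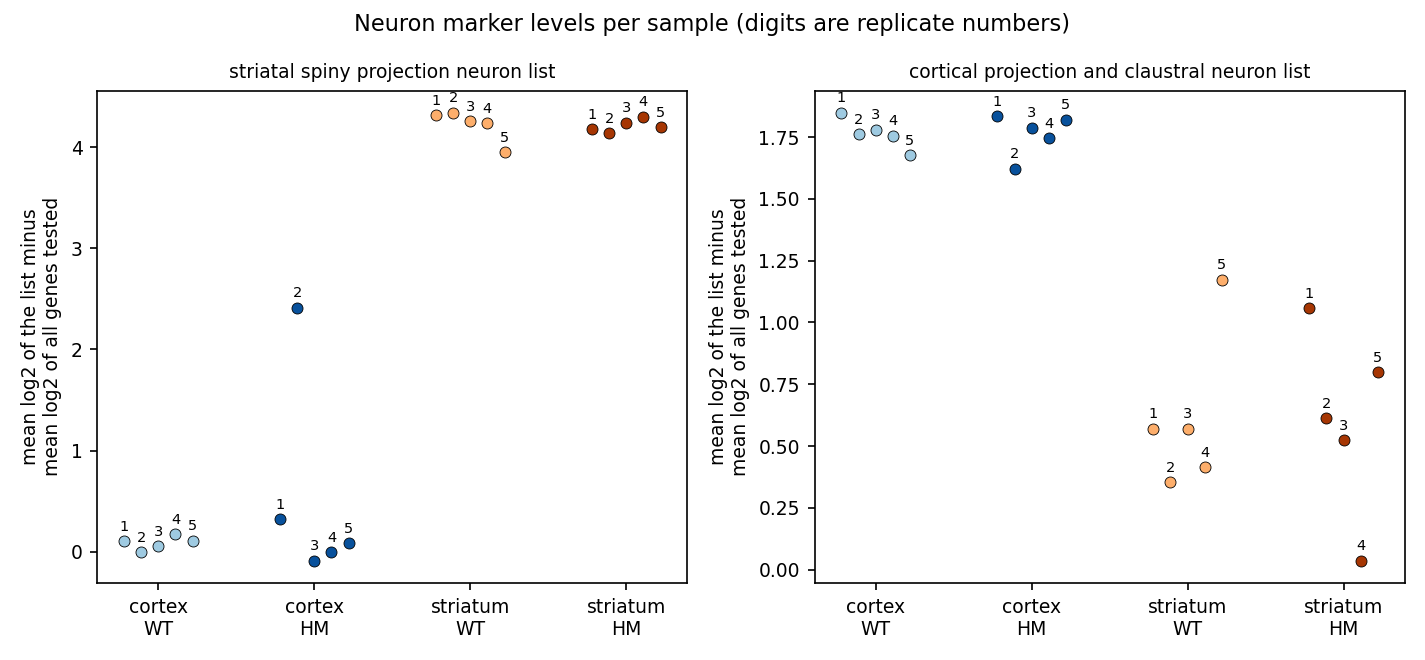
Score of the spiny projection neuron list (left) and of the cortical projection and claustral neuron list (right), as mean log2 of the list minus mean log2 of all genes tested, with one point per sample and the replicate number above it. Cortex HM replicate 2 lies at 2.41 on the left where the other cortex samples lie at or below 0.32, and striatum WT replicate 5 lies at 1.17 on the right, above the other striatum WT samples.

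In the main fit, of all 20 samples without covariates, no gene passed the test of the difference between regions. With limma and the Benjamini-Hochberg adjustment over 16632 genes, 0 genes (0%) had an adjusted p under 0.05, 5 (0.0301%) had one under 0.1, and 761 (4.58%) had an unadjusted p under 0.05, where 832 are 5% of the genes tested. Of these 761, 397 (2.39%) were higher and 364 (2.19%) lower in the striatal than in the cortical change. In the same fit, 28 genes (0.168%) passed in the striatum, 23 (0.138%) higher and 5 (0.0301%) lower in HM mice, and 2 (0.012%) passed in the cortex, Gpr139 higher and Shank3 lower (0.00601% each). At an unadjusted p under 0.05 were 1118 genes (6.72%) in the striatum, 589 (3.54%) higher and 529 (3.18%) lower, and 918 (5.52%) in the cortex, 505 (3.04%) higher and 413 (2.48%) lower. HM and WT samples did not overlap in at least one region in 435 genes (2.62%), with striatum HM above WT in 182 (1.09%) and below in 126 (0.758%), and cortex HM above WT in 69 (0.415%) and below in 64 (0.385%). A call in one region and none in the other does not show that the regions differ. The SE of the difference was 0.15 in the median gene and its 95% interval reached 0.31 to either side, and 70.8% of the genes had an interval within 0.5 of their value. The differences ran from −0.43 at the 5th to 0.40 at the 95th percentile, with a median of 0.002. Across the 16632 genes, which are not independent replicates, striatal and cortical changes had a Pearson r of 0.096 and a Spearman rho of 0.093, and the labels do not say whether the regions came from the same mice.

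**Figure D2:**
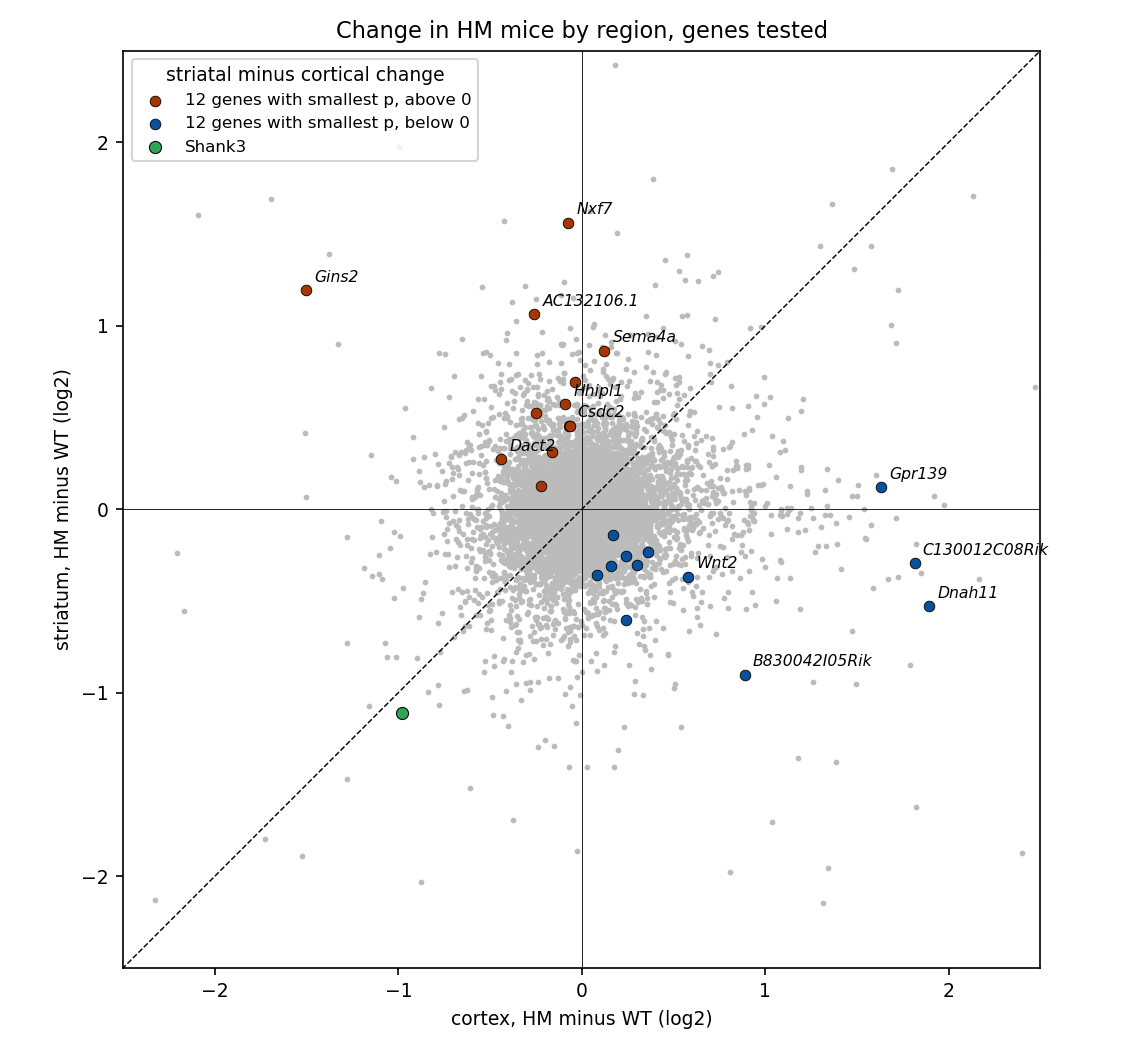
Change in HM against WT mice on the log2(value + 1) scale in the cortex (x axis) and the striatum (y axis), with one point for each gene tested, except 13 that lie outside the axes. The dashed line marks equal change. The 24 coloured genes are the 12 with the smallest p on either side of the line, and Shank3 (green) lies close to the line at −0.98 and −1.11.

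The count of genes past the threshold changed with the settings of the fit and with single samples, among these most with striatum WT replicate 5. On the same 20 samples, 9 genes passed with sample weights, and 1 without the intensity trend or with a pseudocount of 0.1. With the replicate number within genotype as a block 5 passed (Hhipl1, Sema4a, Csdc2, Nptx2 and Gpr139). Other settings, listed at the end, gave 0. Without striatum WT replicate 5, 9 genes had an adjusted p under 0.05: Hhipl1, Sema4a, Nxf7, Gins2, Iqsec3, Csdc2, Cux2 and Lrrc55, with a higher striatal than cortical change, and Gpr139, with a lower one. Without striatum WT replicate 2 only Nxf7 passed (adjusted p = 0.0266), without cortex WT replicate 3 only Gpr139 (adjusted p = 0.0274), and 0 genes passed without any one of the other 17 samples, cortex HM replicate 2 among them. Without striatum WT replicate 5 and cortex HM replicate 2, 8 genes passed, 6 of the 9 (Sema4a, Gins2, Csdc2, Cux2, Gpr139 and Lrrc55) and, with a lower striatal change, Id4 and Deptor, an inhibitor of mTOR. Deptor was named after its values were seen. The part of cortical tissue in these calls was not tested.

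The genes with the smallest p on the side of a higher striatal change are described first, then those on the other side. Since they were taken by this contrast, the directions and the separation of their groups are a description. Among the 12 on the higher side, the difference ranged from 0.35 to 2.70, the striatal change was above 0 in 12 and the cortical change below 0 in 11, with Sema4a as the exception. Striatum HM and WT did not overlap in 9 of the 12 (1.85% of all genes) and cortex HM and WT in 2 (0.8% of all genes). In HT mice, which the choice did not use, 9 of the 12 had a higher level in the cortex than in the striatum, where 48.6% of all genes had. The 12 genes have no single role in common, and include a neuropeptide-processing enzyme, receptors, and scaffold and RNA-binding proteins.

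Nxf7 (chrX:135579555-135598777) belongs to the family of nuclear RNA export factors, whose related genes on the X chromosome could share reads with it. In the striatum it had 23.0, 52.5, 37.6, 34.5 and 33.1 normalized counts in WT and 99.9, 131, 97.2, 83.3 and 120.3 in HM mice. In the cortex it had 43.2, 48.6, 49.3, 56.8 and 48.9 in WT and 51.2, 30.02, 58.0, 47.1 and 52.6 in HM mice. All striatal HM samples lay above all striatal WT samples, and the cortical groups overlapped. Nxf7 rose 2.95-fold in the striatum (log2 1.56 ± 0.20, adjusted p = 0.000711), and its cortical log2 change was −0.07 ± 0.20. The difference was 1.64 ± 0.28 (95% interval 1.05 to 2.22, adjusted p = 0.0706). Its adjusted p was 0.0419 without striatum WT replicate 5. Without cortex HM replicate 2, the lowest cortical sample, the difference was 1.48 (adjusted p = 0.102).

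Hhipl1 (chr12:108306270-108330869) encodes a secreted protein related to the hedgehog-interacting protein. It had 296, 397, 357, 359 and 368 normalized counts in striatum WT and 545, 579, 512, 525 and 475 in striatum HM. The cortex had 479, 562, 533, 479.9 and 484 in WT and 468, 469.6, 471, 551 and 428 in HM. The striatal HM values all lay above those of striatum WT, and 4 of the 5 lay within the range of the cortical samples. The striatal rise of 0.57 ± 0.08 (adjusted p = 0.00223) stood beside a cortical change of −0.09 ± 0.08. The difference was 0.66 ± 0.12 (adjusted p = 0.0706). Its adjusted p was 0.0419 without striatum WT replicate 5 but 0.102 without cortex HM replicate 2.

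Csdc2 (chr15:81936759-81950941) encodes an RNA-binding cold shock domain protein. Its normalized counts were 1585, 1720.3, 1646, 1961 and 2066 in striatum WT and 2362, 2598, 2602, 2558 and 2162 in striatum HM. They were 2769, 2558, 2696, 2954 and 2852 in cortex WT and 2556, 2651, 2698, 2659 and 2616 in cortex HM. The striatal groups were apart, whereas the cortical HM values all lay within the cortical WT range apart from the lowest. The striatal rise was 0.46 ± 0.07 (adjusted p = 0.00297), the cortical change −0.07 ± 0.07 and the difference 0.52 ± 0.10 (adjusted p = 0.0706). For the difference the adjusted p was 0.0142 without striatum WT replicate 5 but 0.102 without cortex HM replicate 2.

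Ackr1 (chr1:173331886-173333750), the atypical chemokine receptor that binds chemokines without G protein signaling, is known from venules and red blood cells. The striatum had 717, 825, 724, 753 and 743 normalized counts in WT and 864, 946, 932, 982 and 948 in HM. The cortex had 840.0, 845, 727, 748 and 898 in WT and 759, 724, 733, 714 and 688 in HM. The striatal groups were apart, and 2 of the 5 cortical HM samples lay within the range of cortex WT. It rose in the striatum by 0.31 ± 0.06 (adjusted p = 0.0312), and the cortical change was −0.16 ± 0.06 (adjusted p = 0.888). The difference was 0.47 ± 0.09 (adjusted p = 0.0706). Its adjusted p was 0.0808 without striatum WT replicate 5 and 0.102 without cortex HM replicate 2.

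Sema4a, a membrane-bound semaphorin (chr3:88435959-88461182), had a striatal WT value that stood apart. It had 551, 553, 586, 561 and 883 normalized counts in striatum WT and 1026, 1281, 1264, 980.1 and 1093 in striatum HM, and the WT value of 883 is that of replicate 5. Cortex WT had 1360.1, 1419, 1549.5, 1433 and 1813 and cortex HM 1620.1, 1569, 1697, 1691 and 1630.4. The difference of 0.74 ± 0.16 had an adjusted p of 0.169 with all samples and of 0.00375 without that replicate, where it was 0.87. Without cortex HM replicate 2 the difference was 0.73 (adjusted p = 0.233). The striatal groups were apart also with striatum WT replicate 5, and the part of cortical tissue in its value was not tested.

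Mas1, the receptor of the angiotensin-(1-7) peptide, had 165, 151, 137, 133 and 152 normalized counts in striatum WT and 231, 225, 257, 236 and 239 in striatum HM. In the cortex it had 274, 332, 222, 242 and 311 in WT and 307, 265, 229.7, 263 and 271 in HM. It rose in the striatum by 0.69 ± 0.10 (adjusted p = 0.00308), and its difference of 0.73 ± 0.15 had an adjusted p of 0.144. Dact2, which binds Dishevelled in Wnt signaling, was below 0 in the cortex and above 0 in the striatum, with a striatal change of 0.27 ± 0.10 and a cortical change of −0.44 ± 0.10, neither past its own adjusted threshold, and a difference of 0.71 ± 0.14 (adjusted p = 0.115). Its normalized counts were 1783, 1868, 1733, 1496 and 1703 in cortex WT, 1581, 999, 1313, 1254 and 1231 in cortex HM, 1025, 1133, 1223, 1145 and 999 in striatum WT and 1273, 1255, 1513, 1479.6 and 1173 in striatum HM, and the groups overlapped in both regions. Without cortex HM replicate 2, the lowest of cortex HM, the difference of Dact2 was 0.63.

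Mpp3, a membrane-associated guanylate kinase scaffold, rose in the striatum by 0.45 ± 0.08 (adjusted p = 0.0122) from a WT range of 1125 to 1411 to an HM range of 1571 to 2009.7, with a difference of 0.52 ± 0.11 (adjusted p = 0.169). Pam, the enzyme that amidates neuropeptides, had cortical groups that were apart, 5717 to 6622 in WT and 4703 to 5599.6 in HM, and a difference of 0.35 ± 0.08 (adjusted p = 0.284). Lamp5, a lysosome-associated membrane protein family member that marks upper-layer projection neurons and a class of interneurons, had 3153, 3020.2, 2901, 2955 and 2496 normalized counts in striatum WT and 4434, 4004, 4487, 4143 and 3843 in striatum HM, and a difference of 0.77 ± 0.18 that was 0.62 without cortex HM replicate 2. That replicate had the lowest Lamp5 of the cortical samples, 3882, and the lowest Slc17a7 of cortex HM, 21676 normalized counts, and the part of its tissue make-up in the Lamp5 value was not tested.

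At lower levels, Gins2, a subunit of the GINS complex of the replication fork, had the largest difference on this side, 2.70 ± 0.56 (adjusted p = 0.144). It had 50.6, 15.99, 27.7, 30.5 and 53.8 normalized counts in cortex WT and 8.47, 13.6, 10.8, 7.93 and 15.4 in cortex HM, with groups that were just apart. In the striatum it had 12.9, 13.8, 17.5, 16.4 and 61.5 in WT and 82.4, 31.8, 57.0, 52.7 and 29.6 in HM. Without striatum WT replicate 5, whose 61.5 lay far above the other 4, the difference was 3.09 (adjusted p = 0.0140). Without cortex HM replicate 2 it was 2.77 (adjusted p = 0.165). The RNA AC132106.1 lies on chromosome 17 antisense to Slc22a3, an organic cation transporter. It had 57.0, 45.8, 56.8, 46.5 and 53.9 normalized counts in striatum WT and 113, 89.1, 129, 120.0 and 99.7 in striatum HM, a rise of 1.06 ± 0.20 (adjusted p = 0.0229), with a difference of 1.32 ± 0.28 (adjusted p = 0.169). For Slc22a3 itself the difference was −0.32 ± 0.56, and the sources used here do not state whether strand entered the counting.

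**Figure D3:**
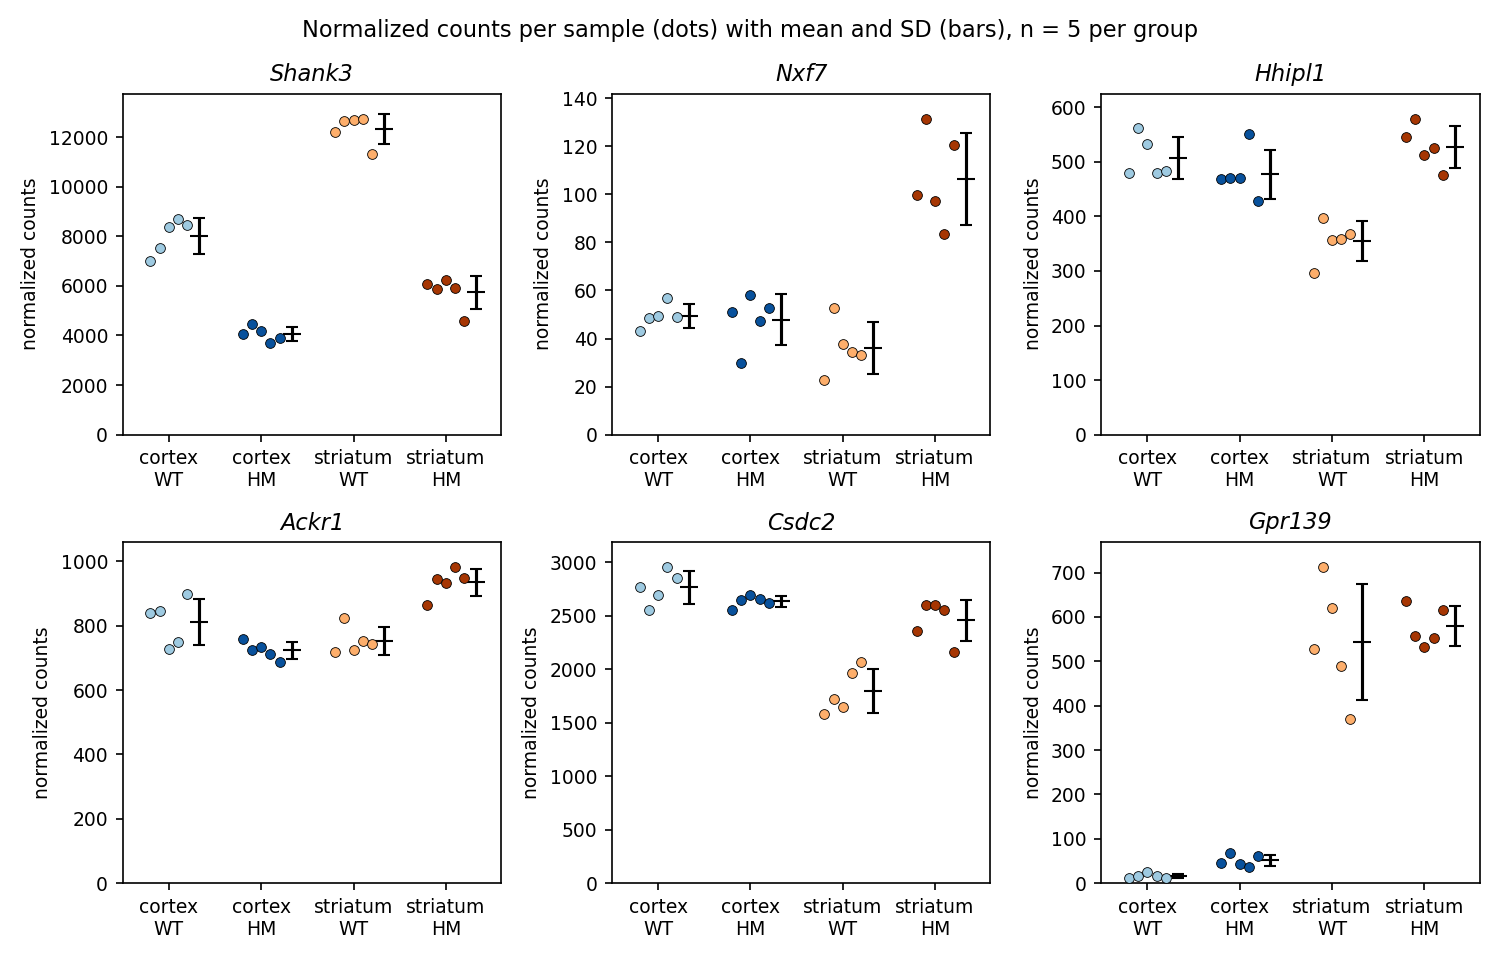
Normalized counts of Shank3 and of the 5 genes with the smallest p for the difference between regions, with one dot per sample (n = 5 per group) and the mean with its SD beside the dots. Striatal HM samples lie above striatal WT samples in Nxf7, Hhipl1, Ackr1 and Csdc2, and cortical HM samples lie above cortical WT samples in Gpr139.

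Among the 12 genes on the side of a lower striatal change, the difference ranged from −2.42 to −0.31. The cortical change was above 0 in 12 and the striatal change below 0 in 11, with Gpr139 as the exception. HM and WT did not overlap in the striatum in 6 of the 12 (1.85% of all genes) and in the cortex in 6 (0.8% of all genes). In HT mice 4 of the 12 were higher in the cortex than in the striatum (48.6% of all genes).

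Gpr139 (chr7:119140747-119184603), a G protein-coupled receptor that responds to aromatic amino acids and is known from the striatum and habenula, was the only gene besides Shank3 to pass in the cortex. It had 12.2, 15.3, 24.1, 16.5 and 11.9 normalized counts in cortex WT and 46.4, 67.7, 44.1, 37.1 and 61.4 in cortex HM. In the striatum, where its level was over an order of magnitude higher, it had 528, 712, 620.0, 490.2 and 369.5 in WT and 636, 557, 533, 554 and 617 in HM. The cortical groups were apart and the striatal groups overlapped. Gpr139 rose in the cortex by 1.63 ± 0.19 (adjusted p = 0.000247), its striatal change was 0.12 ± 0.19, and the difference was −1.51 ± 0.27 (95% interval −2.07 to −0.95, adjusted p = 0.0706). Cortex HM replicate 2 had the highest cortical value, 67.7, and the other 4 cortex HM samples lay between 37.1 and 61.4. The part of striatal tissue was not tested, and the difference without that replicate was −1.41 (adjusted p = 0.102). Without striatum WT replicate 5 the difference was −1.64 (adjusted p = 0.0145).

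B830042I05Rik, a long intergenic RNA on chromosome 8 (11071046 to 11076881), was 1 of 3 genes (0.018% of all genes) whose HM samples lay beyond all WT samples in both regions and in opposite directions. It had 12.3, 12.6, 9.73, 15.3 and 7.88 normalized counts in cortex WT and 19.1, 21.6, 21.8, 29.5 and 18.4 in cortex HM. In the striatum it had 9.91, 16.2, 11.5, 8.79 and 13.8 in WT and 5.48, 7.01, 4.18, 8.04 and 5.17 in HM. The difference was −1.79 ± 0.35 (adjusted p = 0.115), and all values are low. Celf3, a neuronal RNA-binding protein that regulates splicing, was the second of the 3, at a far higher level. It had 3713, 4109.7, 4144, 3914 and 4328 normalized counts in cortex WT and 4367, 4995, 4423, 4559 and 4416 in cortex HM, and 6060.1, 5614, 5589, 5761 and 5951 in striatum WT and 5289, 5497, 5513, 5317 and 4725 in striatum HM. Its difference was −0.31 ± 0.07 (adjusted p = 0.304). The third, the iron-regulated aconitase gene Aco1, was named after its values were seen and went the other way, with a cortical change of −0.21 ± 0.05, a striatal change of 0.07 ± 0.05 and a difference of 0.28 ± 0.07 (adjusted p = 0.304).

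Slc35f1, an orphan member of the nucleotide sugar transporter family, had 2676, 2649, 2571, 2528 and 2657 normalized counts in striatum WT and 2144, 2073, 2125, 2226 and 2416 in striatum HM, which did not overlap. The cortex had 1719.8, 2033, 1552, 1634 and 1671 in WT and 2032, 2411, 1904, 1822 and 2006 in HM, with a difference of −0.49 ± 0.10 (adjusted p = 0.144). Without cortex HM replicate 2, the highest of the cortex, the difference was −0.43. Wnt2, a secreted Wnt ligand, had 350.1, 342, 377, 374 and 304 in striatum WT and 253, 296, 266, 287 and 251 in striatum HM, again without overlap. Cortex WT had 61.3, 61.0, 71.7, 80.7 and 57.1 and cortex HM 90.9, 193, 72.5, 85.5 and 86.8, so that replicate 2 lay far above the rest, and the difference of −0.95 ± 0.25 was −0.71 without it. Fam196a (now Insyn2a), a component of inhibitory synapses, had 263, 281, 217, 254 and 242 normalized counts in cortex WT and 328, 403, 284, 321 and 287 in cortex HM, without overlap, and 192, 176, 184, 183 and 259.7 in striatum WT and 177, 164, 167, 147 and 185 in striatum HM. Its difference was −0.59 ± 0.16 with all samples and −0.41 without cortex HM replicate 2 and striatum WT replicate 5.

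The Nedd4-binding protein gene N4bp3 (−0.61 ± 0.14), the docking protein gene Dok4 (−0.46 ± 0.11), the dihydrouridine synthase gene Dus4l (−0.85 ± 0.22) and Cc2d1a (−0.44 ± 0.12), a scaffold and transcriptional repressor tied to intellectual disability, completed the better measured genes on this side, with adjusted p values from 0.264 to 0.507. In Dok4 and Dus4l the striatal groups were apart. The transcript C130012C08Rik was listed at 0 in all 5 cortex WT samples and at 0.964, 9.95, 1.07, 2.17 and 2.80 in cortex HM, against 40.5, 32.998, 37.3, 29.2 and 28.1 in striatum WT and 20.6, 32.4, 19.5, 33.6 and 32.4 in striatum HM, and replicate 2, the highest in cortex HM, is the sample with spiny projection neuron markers. Dnah11, an axonemal dynein heavy chain, had 0.945, 2.09, 2.19, 1.92 and 1.75 in cortex WT and 3.599, 37.3, 5.05, 18.1 and 4.37 in cortex HM, with the same replicate highest. The difference of C130012C08Rik was −2.11 with all samples and −1.70 without that replicate, and that of Dnah11 was −2.42 and −1.95. The sizes of these last 2 differences depend on the pseudocount of 1.

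The 28 genes that passed in the striatum, named after their values were seen where the leading genes above do not hold them, show what the cortex did where the striatum moved. The 23 that rose in the striatum did so by 0.24 to 1.56 (median 0.52), and their cortical changes ran from −0.26 to 0.35 with a median of 0.004, above 0 in 12 of 23 (49.5% of all genes). In 26 of the 28 the difference between regions had an unadjusted p under 0.05 (4.58% of all genes). As the striatal change is part of the difference, this count was in part set by the choice. Their adjusted p values for the difference ran from 0.0706 to 0.999.

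Rimbp2, which ties presynaptic calcium channels to the active zone, rose in the striatum from 3882, 4117, 3778, 4091 and 4754 in WT to 5821, 6183, 5889, 5789 and 5802 in HM, by 0.52 ± 0.07 (adjusted p = 0.00174). Its cortical values were 6263, 7406, 6434, 7251 and 7924 in WT and 7324, 6524, 8108, 8215 and 7424 in HM, and its difference was 0.43 ± 0.10 (adjusted p = 0.304). Nptx2, a secreted, activity-regulated pentraxin that gathers AMPA receptors at synapses, had 492, 525, 537, 598 and 742 in striatum WT and 1157, 873, 836, 884 and 1088 in striatum HM, a rise of 0.74 ± 0.14 (adjusted p = 0.0211). Cortical Nptx2 was 857, 879.6, 1031, 1102 and 1351 in WT and 1001, 722, 1070.2, 942 and 1129 in HM, and the difference was 0.84 ± 0.20 (adjusted p = 0.304). Both genes had striatal groups that were apart and cortical groups that overlapped.

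Lgi2, a secreted neuronal protein, rose by 0.49 ± 0.09 in the striatum beside a cortical change of −0.049 ± 0.09. Lrrc55, an auxiliary subunit of BK potassium channels, rose by 0.57 ± 0.10 beside 0.06 ± 0.10 in the cortex. Vipr1 and Gdpd5 also had cortical changes above 0, 0.15 ± 0.09 for the receptor of vasoactive intestinal peptide and 0.19 ± 0.07 for the glycerophosphodiesterase. Besides Shank3, the genes that fell in the striatum were Ddn (−0.31 ± 0.06) and Begain (−0.27 ± 0.05), both of the postsynaptic density, the junctophilin gene Jph4 (−0.26 ± 0.048) and Dcaf7 (−0.26 ± 0.050), and all had cortical changes below 0, −0.13 ± 0.06 in Ddn, −0.049 ± 0.05 in Begain, −0.037 ± 0.048 in Jph4 and −0.11 ± 0.050 in Dcaf7.

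By gene list, no member of any of the 31 lists passed the test of the difference (0% of all genes did), and the lists are described by members at an unadjusted p under 0.05, which 4.58% of all genes had, and by their median, which was 0.002 over all genes. Members other than the one with the smallest p in a list and those with a p under 0.01 were named after their values were seen. Among postsynaptic proteins, 0 of 6 Shank and Homer scaffolds were at that p. Of 30 other postsynaptic density proteins 2 were, both with a higher striatal change, with the scaffold gene Dlg2 at 0.24 ± 0.09. Of 22 AMPA receptor subunits and partners, 2 were higher and 2 lower (median −0.09), and 1 was higher and 1 lower without cortex HM replicate 2 (median −0.01). Besides Nptx2, its receptor gene Nptxr was at 0.47 ± 0.20, while the auxiliary subunit genes Shisa9 and Shisa7 were at −0.30 ± 0.12 and −0.20 ± 0.10. Of 6 NMDA receptor subunits, Grin2a was at 0.36 ± 0.12 and Grin2d at −0.32 ± 0.11. Grin2a had 3721, 3498, 3389, 3466 and 3162 normalized counts in striatum WT and 3823, 3971, 4193, 3843 and 3926 in striatum HM, groups that were just apart, and 7294, 7563, 6672, 8609 and 7718 and 6924, 5235, 6862, 8196 and 6742 in the cortex. Of 7 metabotropic glutamate receptors 0 were at that p.

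At inhibitory synapses, 1 of 25 genes was higher and 2 lower, and 5 were higher and 3 lower without cortex HM replicate 2, where 430 and 399 of all 16632 genes were. Iqsec3, a regulator of gephyrin-linked ARF signaling, was at 0.42 ± 0.13, with 1768, 2079, 2087, 2059 and 2879 in striatum WT and 2724, 2798, 2864, 2608 and 2837 in striatum HM, and the scaffold gene Gphn was at −0.36 ± 0.14. Striatum WT replicate 5 again held the highest striatal WT value of Iqsec3. Of 30 active zone genes 2 were higher, Rimbp2 and the scaffold gene Bsn (0.31 ± 0.10, 0.23 without cortex HM replicate 2), and of 31 adhesion genes 0 were at that p. Of 56 potassium channel genes, 8 were higher and 2 lower, 17.9% in all, with a median of 0.12 that was 0.08 without cortex HM replicate 2. They include Kcns2 (0.33 ± 0.11) and Kcnc1 (0.24 ± 0.09), which code for subunits of delayed rectifier channels, and on the lower side Kcng1 (−0.37 ± 0.13) and Kcnip3 (−0.29 ± 0.11). Of 29 sodium, calcium and HCN channel genes, 1 was higher, Cacna1i (0.30 ± 0.10), and 2 were lower, Scn3b (−0.33 ± 0.10) and Scn9a (−1.23 ± 0.43).

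Of 45 activity-regulated genes 4 were higher and 0 lower (median 0.05), namely Nptx2, Ptgs2, Inhba and Vgf. Without cortex HM replicate 2, 3 were higher (median 0.02), and without striatum WT replicate 5 as well 6 were (median 0.05). Ptgs2, the inducible cyclooxygenase, had 57.4, 63.7, 52.9, 75.9 and 103 normalized counts in striatum WT, 119, 123, 107, 77.5 and 111 in striatum HM, 386, 347, 346, 409 and 541 in cortex WT and 378, 266, 341, 394 and 372 in cortex HM, with a difference of 0.83 ± 0.24 (adjusted p = 0.607). Inhba, the activin A subunit, had 598, 684, 676, 570.1 and 512 in striatum WT and 814, 737, 865, 895 and 946 in striatum HM, which did not overlap, and a difference of 0.56 ± 0.19 (adjusted p = 0.886). Of 29 neuropeptide and processing genes 2 were higher, Pam and Vgf, and 1 lower, Trh (−1.13 ± 0.47). Without cortex HM replicate 2, 2 were higher and 0 lower, and Trh was at −0.87. The 29 glucocorticoid response genes had median changes of 0.22 in the striatum and 0.17 in the cortex. At an unadjusted p under 0.05, 11 were higher and 0 lower in the striatum and 8 higher and 1 lower in the cortex, where 3.54% of all genes were higher in the striatum and 3.04% in the cortex, and 1 striatal and 0 cortical changes passed the adjusted threshold. Their difference between regions was at that p in 0 of 29, with a median of 0.12. The 8 nicotinic receptor genes had a median of 0.36, and 0.22 without cortex HM replicate 2. Of these 1 was at that p with a higher striatal change, Chrnb4, which is near 0 in the cortex, so that its cortical change could not be measured, with 8.16, 17.3, 9.54, 13.2 and 10.2 in striatum WT and 49.4, 47.3, 43.3, 44.5 and 28.6 in striatum HM, and 2.07, 0.993, 3.51, 3.62 and 0 and 1.90, 7.02, 4.33, 1.07 and 0.925 in the cortex, and 1 lower, Chrna4 (−0.36 ± 0.17).

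The 2 lists with the lowest medians moved with cortex HM replicate 2. The spiny projection neuron list had a median difference of −0.38, from −0.02 in the striatum and 0.38 in the cortex. Its median was −0.006 without that replicate and −0.07 without striatum WT replicate 5 as well. The cholinergic list had a median of −0.41, and −0.12 without it, and its score in that replicate was −0.08 where cortex WT reached at most −2.66. In other cell type lists, the median difference was 0.05 for cortical projection neurons (−0.07 without that replicate, and 0.11 without striatum WT replicate 5 as well), −0.05 for inhibitory interneurons (0.05 without it, and 0.11 without both), 0.07 for oligodendrocytes (0.15 without it), 0.04 for astrocytes (0.09 without it), 0.06 for microglia (0.08), 0.08 for endothelial and mural cells (0.10) and −0.11 for choroid plexus and ependyma (−0.10, and 0.09 without striatum WT replicate 5 as well). Without that replicate 2 of 43 spiny projection neuron genes were higher and 3 lower at an unadjusted p under 0.05, where 0 and 1 were with it. Of 35 astrocyte genes 3 were higher and 1 lower, where 1 and 1 were. Of all 16632 genes, 430 were higher and 399 lower without that replicate. Without striatum WT replicate 5 as well, 1 spiny projection neuron gene was higher and 5 were lower. There the counts over all genes were 448 and 410. Of 40 cortical projection neuron genes 4 were higher at an unadjusted p under 0.05, with Lamp5 and Cux2 (0.72 ± 0.21), a transcription factor of upper layers, at the smallest p. Id4, an inhibitor of basic helix-loop-helix factors on the astrocyte list, was at −0.64 ± 0.18, and −0.49 without cortex HM replicate 2, which with 2991 normalized counts was the highest in the cortex. Striatal Id4 was 7559.8, 9058, 8342, 6652 and 5788 in WT and 5899, 5830.0, 5180.5, 5856 and 5091 in HM.

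Medians of the remaining lists lay between −0.05 and 0.06 with all samples. The lowest, that of circadian genes, was −0.09 without cortex HM replicate 2 and −0.12 without striatum WT replicate 5 as well. At an unadjusted p under 0.05 were 0 of 21 circadian genes, 1 of 18 glutathione genes, 1 of 30 neighbors of Shank3 on chromosome 15, 0 of 41 chromatin and transcription regulators of autism risk, 4 of 40 synaptic autism risk genes (2 higher, 2 lower), 1 of 79 cytosolic ribosome genes, 1 of 75 respiratory chain genes and 0 of 82 spliceosome genes.

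**Figure D4:**
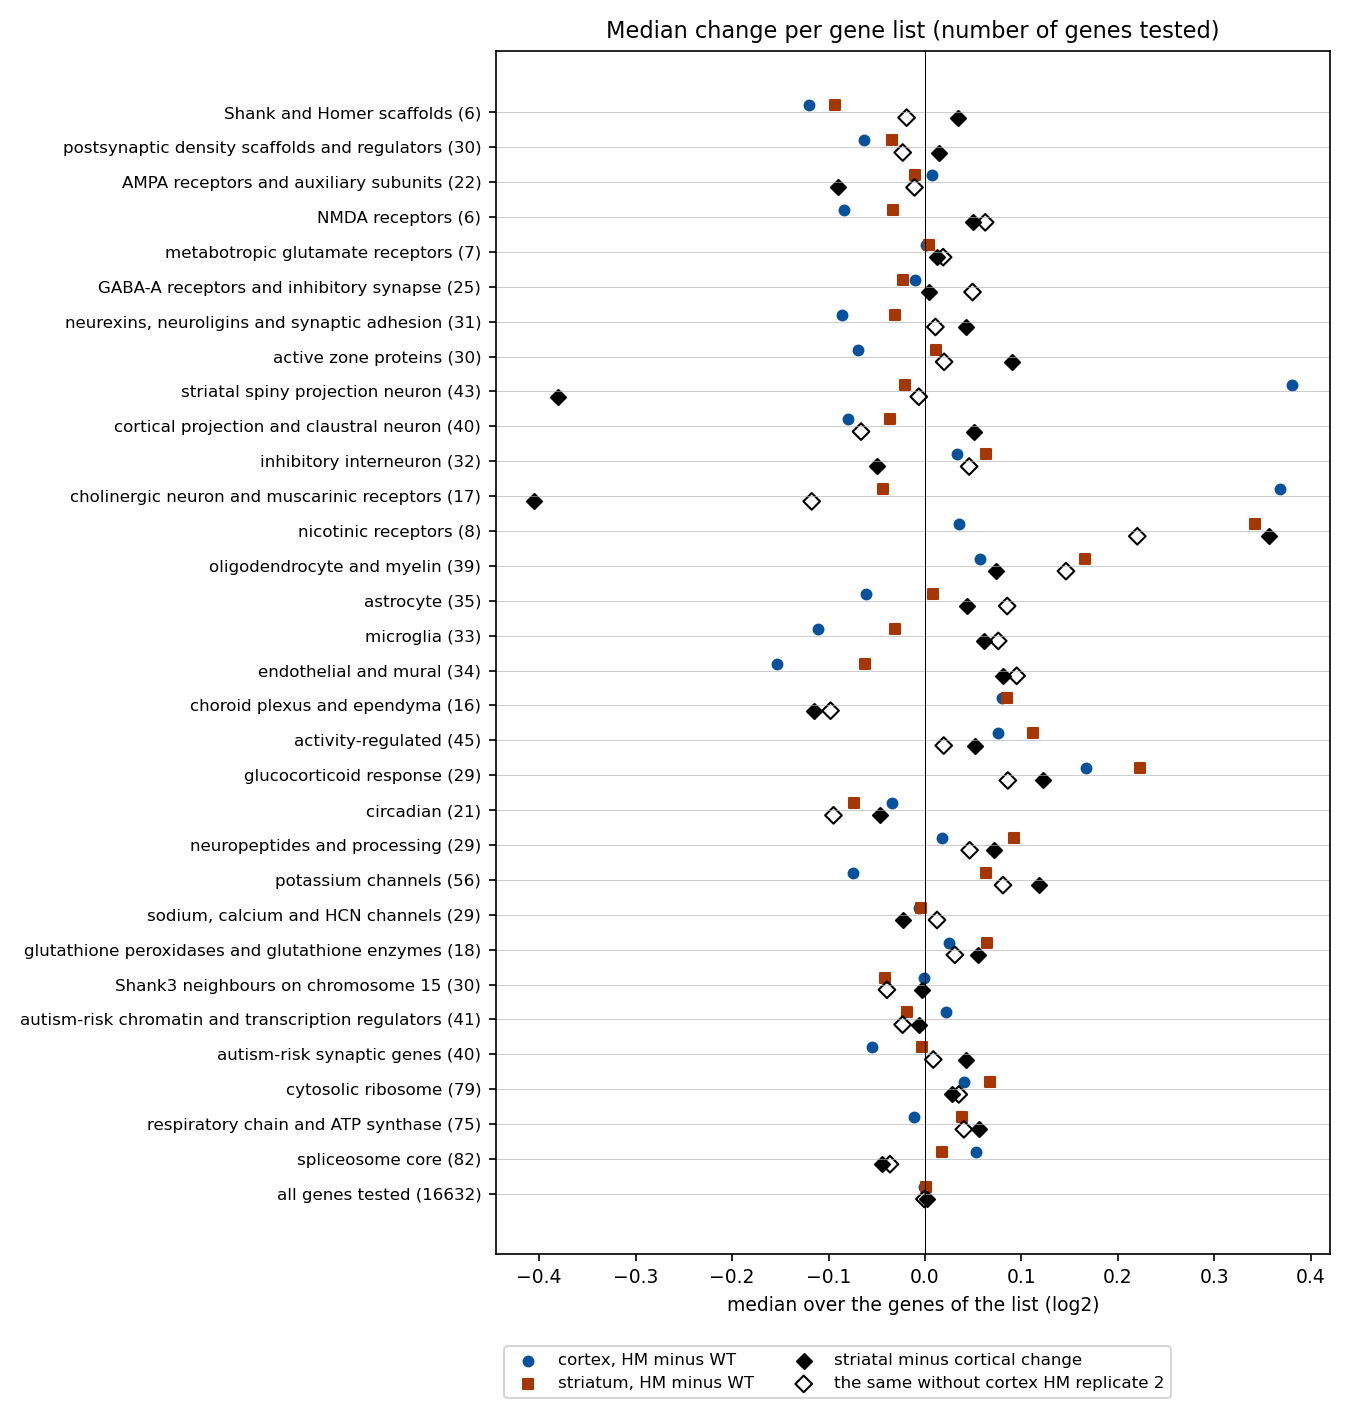
Median log2 change over the genes of each list (number tested in parentheses), for HM minus WT in the cortex (circles) and striatum (squares), for the striatal minus the cortical change (filled diamonds) and for the same without cortex HM replicate 2 (open diamonds). The spiny projection neuron list moves from −0.38 to −0.006 when that sample is left out, and most other lists lie near 0.

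The leading genes were also read in HT mice and in the hippocampus. HT changes use the WT samples that the choice of the genes used, so that they are given as values beside those of HM and their directions are not read as support. Nxf7 was at 0.21 ± 0.32 in striatum HT, Hhipl1 at 0.018 ± 0.09 and Csdc2 at 0.19 ± 0.06, and Gpr139 was at 1.04 ± 0.20 in cortex HT. In the hippocampus of HM mice, which shares no sample with either region, changes were above 0 in 5 of the 12 genes on the higher side (median −0.04) and in 6 of 12 on the lower side (median 0.003), where 51.5% of all genes were. Of the 24, 2 had an unadjusted p under 0.05 (4.88% of all genes). These were Nxf7 at −0.70 ± 0.32, below 0 where the striatum was above it, and Slc35f1 at 0.21 ± 0.08, above 0 as in the cortex.

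**Figure D5:**
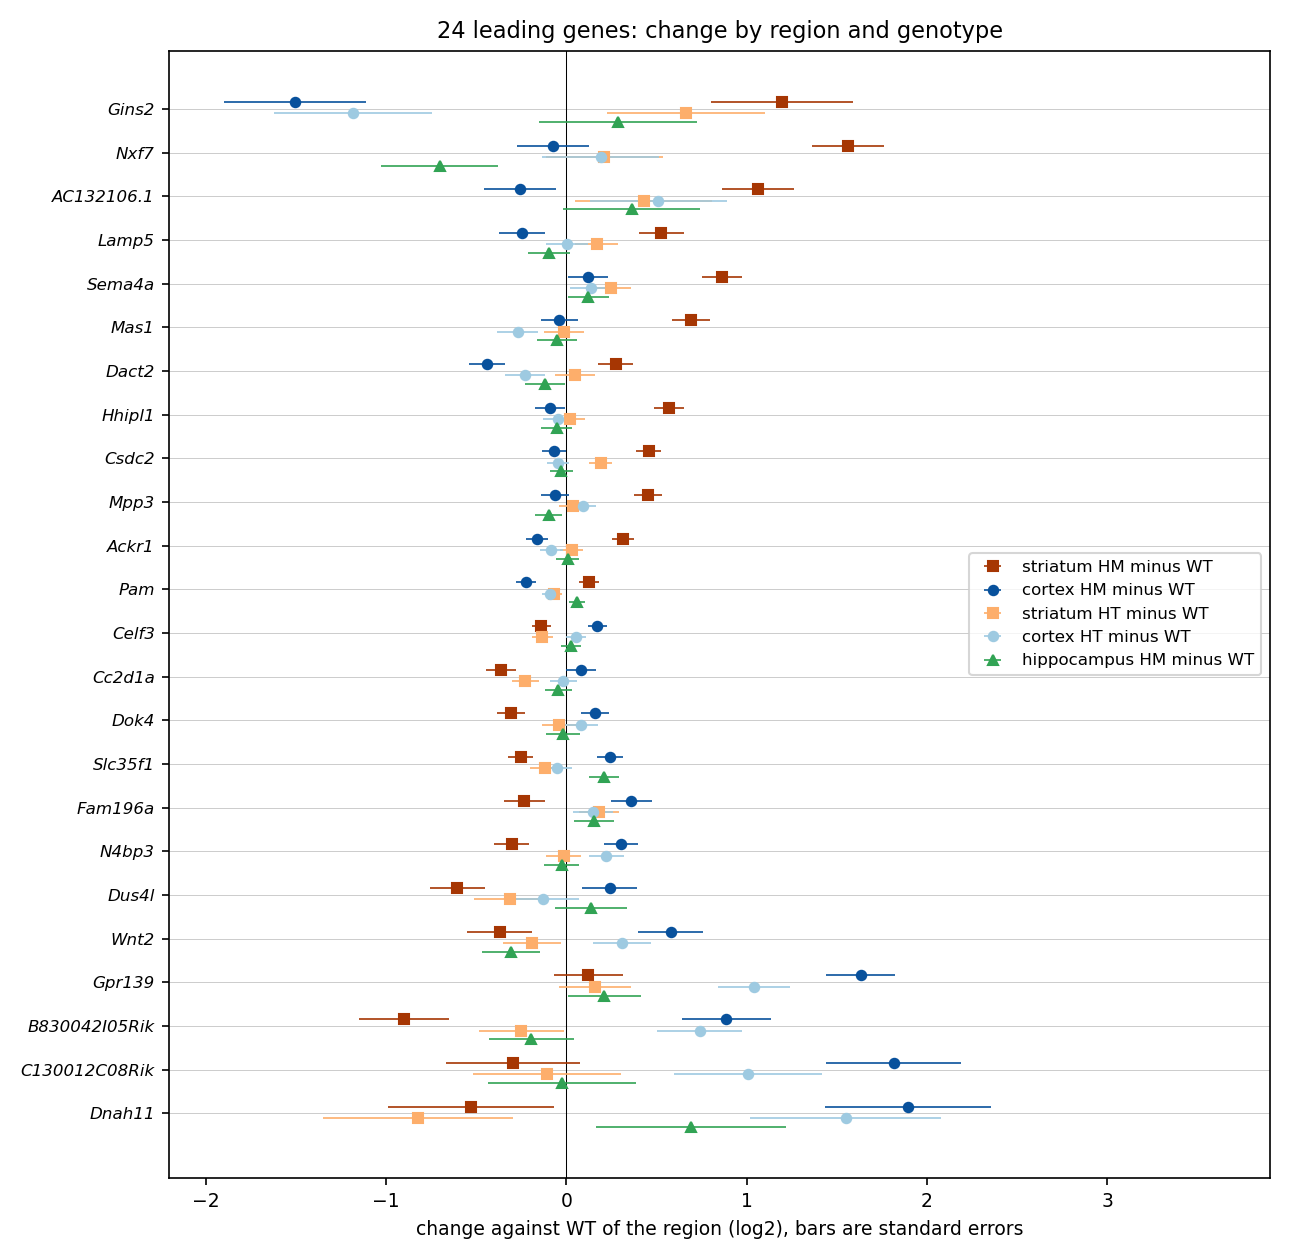
Log2 change against the WT mice of the same region, with standard errors, for the 24 leading genes in striatum and cortex of HM mice, striatum and cortex of HT mice and the hippocampus of HM mice. Nxf7 lies at 1.56 in striatum HM, 0.21 in striatum HT and −0.70 in hippocampus HM, and Gpr139 lies at 1.63 in cortex HM and 1.04 in cortex HT, while the cortical values of C130012C08Rik are set against WT samples all listed at 0 and are no fold.

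Other genes that the study names for these regions showed no difference that passed. Gpx6, a glutathione peroxidase, had 459.6, 392, 347, 288 and 258 normalized counts in striatum WT and 162, 116, 103, 140.5 and 178 in striatum HM, which did not overlap, and was at or near 0 in the cortex, with at most 5.19 in WT and 7.48 in HM, so that its cortical change could not be measured. Mir670hg, a microRNA host gene, had 104, 109.8, 128, 95.6 and 98.2 in striatum WT and 338, 313, 196, 181 and 312 in striatum HM, and 55.0, 41.8, 65.6, 41.9 and 71.1 and 56.3, 223, 56.3, 137 and 57.5 in the cortex, with a difference of 0.56 ± 0.44 (adjusted p = 0.999) that was 0.88 without cortex HM replicate 2, the sample at 223. Zfp729a, a zinc finger gene that the study names as Znf729 and for the cortex of HT mice, which are not in this contrast, had a difference of 0.16 ± 0.27 that turned to −0.07 without striatum HM replicate 5, whose 965 normalized counts were the highest of the striatum.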

How the data were processed

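RNA-seq of prefrontal cortex and striatum of WT and HM mice was compared. As deposited, the table holds a signal per gene, counts that the authors normalized with DESeq2 after quantifying reads with Salmon on GRCm38 (Salmon 1.1.0, DESeq2 1.26.0 and R 3.6.2 in the submitters' processing notes). Its values are not whole, so that sequencing depth is unknown, no count test was run and no counting interval is given. The 20 columns total 26938860 to 29568983, which is not depth. Genes with a mean of at least 10 were fitted on log2(value + 1), the scale of all fold changes, which understates changes of low genes, with limma 3.58.1 (intensity trend, R 4.3.3), in one fit of 4 groups without covariates, and p-values were adjusted by Benjamini-Hochberg over 16632 genes at a threshold of 0.05. The scripts were tested on simulated data. GENCODE M21 gave symbols and positions for 18120 of 18135 genes.

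Named genes were Shank3, the 12 with the smallest p on either side, Gpr139, Zfp729a, Mir670hg and Gpx6, and from each list the member with the smallest p and any under 0.01, with the exceptions stated. Members and lists were chosen with earlier results of these data known. The labels do not say whether samples with one number come from one mouse, and p-values measure the spread between these samples. Alternatives were the filter, pseudocount, normalization, trend, weights, replicate block, all 45 samples, and each sample left out.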

Additional observations from a re-analysis of the deposited data

Results flagged for a closer look

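Among 268 groups of 5 samples examined, 25 (9.33%) held a sample whose gap to the nearest other exceeded 0.71 of the range, where chance gives about 1 in 20. Cortex HM replicate 2 held 12 of them. It was highest with 193 normalized counts in Wnt2, 9.95 in C130012C08Rik, 7.48 in Gpx6, 1194 in Grm4, a metabotropic glutamate receptor, 1671 in Rasgrp2, 2265 in Ache, the acetylcholinesterase, 2991 in Id4 and 1000.2 in the transcription factor gene Foxp2. The cortical projection and claustral neuron list holds Foxp2, though its WT mean was 2155 in the striatum and 243 in the cortex. Cortex HM replicate 2 was lowest with 14979 in Bsn and 3338 in Cacna1i. Its scores stood apart at 2.41 for spiny projection neurons and −0.08 for cholinergic neurons.

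Striatum WT replicate 5 stood apart with 61.5 normalized counts in Gins2, 883 in Sema4a, 259.7 in Fam196a and 2879 in Iqsec3, with a cortical neuron score of 1.17 and with the lowest spiny projection neuron score of the striatum, 3.95. Striatum HM replicate 5 stood apart with 4569 in Shank3, 4725 in Celf3, 965 in Zfp729a and 2567 in Foxp2. The others were striatum HM replicate 2 with 6183 in Rimbp2, striatum WT replicate 4 with 376 in Zfp729a and cortex WT replicate 3 with 5.19 in Gpx6.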

How the results depend on the processing

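The count of genes with an adjusted p under 0.05 for the difference between regions was 0 in the main fit of all 20 samples. It was 1 without the intensity trend (B830042I05Rik), 1 with a pseudocount of 0.1 (C130012C08Rik), 9 with sample weights and 9 with all 45 samples in one fit. Hhipl1, Ackr1, Csdc2 and Gpr139 passed in both of the last 2. Sema4a, Nxf7, Gins2, Slc35f1 and Dact2 also passed with sample weights, and Pam, Rimbp2, Mpp3, Nptx2 and B830042I05Rik with all 45 samples. The count ranged from 0 to 9 with each sample left out in turn. It was 8 without striatum WT replicate 5 and cortex HM replicate 2, an alternative chosen after seeing the data. It was 0 with robust moderation, quantile normalization, rescaled size factors, a pseudocount of 10, no filter on low genes, only genes of mean 100 or more, genes differing 4-fold between WT regions left out, HM replicate 2 left out in both regions, and marker scores as covariates, also added after seeing the data. The cause of these changes was not tested. Genes at an unadjusted p under 0.05 numbered 761 of 16632 in the main fit. The lowest number was 559, but of only the 12436 genes of mean 100 or more. The highest was 980 of 16632, with the replicate number within genotype as a block.

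With the replicate number as a block the count was 0, and with the number within genotype as a replicate block it was 5 (Hhipl1, Sema4a, Csdc2, Nptx2 and Gpr139). Deviations of same-numbered cortex and striatum samples correlated from −0.11 to 0.24, over 0.1 in 4 of 10 pairs, and 5 of 10 samples correlated best with their own number. Same-numbered WT and HM samples of one region, which are different mice, correlated from −0.04 to 0.14. Of these 10 pairs 1 was over 0.1 and 4 correlated best with their own number. These values do not decide whether the numbers mark the same mouse. The main fit did not take the numbers to pair the samples, and the count of 5 holds if they do.

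The difference of Zfp729a interaction turned to −0.071 without striatum HM replicate 5, with 0.25 as the highest value with a sample left out. It was the 1 reversal among 58 named genes. The list medians of AMPA receptors (0.05 without striatum WT replicate 5 and cortex HM replicate 2) and of sodium, calcium and HCN channels (0.03 without striatum WT replicate 2, 0.02 without striatum HM replicate 2) moved past 0 by more than the SD of the list score between replicates. In all, 15 of 31 list medians lay on the other side of 0 under at least one alternative, 5 of them without cortex HM replicate 2 and 5 without both samples. Depth is unknown, and with 5 samples a group the median gene had a 95% interval of 0.31 to either side.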
